A study of Mus musculus with 8 samples.

Results

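Cluster #p4 is the set of hepatocytes that the authors' multilevel clustering of the parenchymal cells numbered 4, and it is labelled here as periportal hepatocytes. It holds 59 of the 397 parenchymal cells and of the 3491 cells in the atlas. All 59 come from the pool of male parenchymal cells, and the female pool holds 0 cells of the cluster. It is set against #p5, a pericentral hepatocyte cluster of 57 cells, and against the other male hepatocytes, 62 cells of #p1 and 23 cells of #p3. The cells were sorted as single living cells from dissociated livers of healthy adult mice, hepatocytes without selection for a marker, and sequenced with Smart-seq2, which reads cDNA along the whole transcript. The labels give liver, male sex and epithelial cells for the pool but not the mouse, age or genotype of a cell. The study's methods name C57BL6/J mice and strains with heterozygous fluorescent reporter transgenes, and which of them gave these hepatocytes was not analysed here. Males alone contributed, so nothing below compares the sexes.

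Hepatocytes lie in rows between the portal tract, where blood enters the lobule, and the central vein, where it leaves. Those near the portal tract receive blood rich in oxygen and nutrients and are known for urea synthesis, gluconeogenesis and the breakdown of amino acids. Those around the central vein are known for glutamine synthesis and drug metabolism by cytochrome P450 enzymes, under Wnt signals from the central vein endothelium. The comparison of #p4 with #p5 sets a cluster labelled periportal beside one labelled pericentral, and those with #p1 and #p3 place #p4 among the remaining hepatocytes.

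The 59 cells of #p4 held 13179701 counts in all, from 59709 to 639995 a cell with a median of 204679. The medians were 149112 counts in #p5, 134847 in #p1 and 153581 in #p3. A cell of #p4 had a median of 3909 genes with a count, and of 2813 when every cell was thinned to 50000 counts, compared with 2220 in #p5, 1644.5 in #p1 and 2779 in #p3 after the same thinning. Mitochondrial genes took a median of 0.5505% of the counts in #p4 and 1.479% in #p1. The added ERCC spike-in RNAs took a median of 1.364% in #p4, 2.334% in #p5, 5.725% in #p1 and 1.582% in #p3. The cells of #p1 thus had the least RNA of their own beside the spike-ins. A single plate held 56 of the 59 cells (94.9%), as well as 56 of the 57 cells of #p5, 19 of the 23 cells of #p3 and 24 of the 62 cells of #p1. The comparison with #p5 is thus nearly a comparison within that plate, called the main plate below. Levels are CPM, the counts of a gene scaled to a total of 1000000, from the counts summed over the cells of a cluster, and ratios are log2 ratios of CPM after adding 0.5. Each cluster is 1 sample, the clusters were made from these same counts, and no test was run. Intervals in square brackets are exact 95% Poisson intervals and cover counting error only, since reads without molecular identifiers are not independent molecules. Exact binomial 95% intervals of shares of cells likewise cover counting error only, take the cells of 1 pool as independent draws and say nothing of the spread between mice.

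The markers that gave the cluster its label are described first, and since the clustering used the same counts, their levels are no independent check of it. *Hal*, histidine ammonia-lyase, the entry step of histidine breakdown, was at 1899 CPM [1875 to 1922] in #p4 and at 14.1 CPM [11.82 to 16.69] in #p5. Over single cells of #p4 its level ran from 0 through a median of 1924 to 3961 CPM, with a count in 58 of 59 cells (98.3%, 90.9% to 100%), while the highest cell of #p5 had 206.2 CPM and 25 of 57 cells (43.9%, 30.7% to 57.6%) had a count. The cells of both clusters therefore overlapped through a small number of cells. *Sds*, serine dehydratase, which turns serine into pyruvate and ammonia, was at 570.2 CPM [557.4 to 583.2] in #p4 and 7.103 CPM [5.515 to 9.004] in #p5. Counts of it were found in 88.1% of the cells of #p4 (77.1% to 95.1%) and in 14% of those of #p5 (6.26% to 25.8%). After thinning to 50000 counts, 84.7% of the #p4 cells and 5.26% of the #p5 cells had an *Sds* count. *Cyp2f2*, a cytochrome P450 used as a periportal marker, was at 1164 CPM in #p4 and 24.86 CPM in #p5, with at least 100 CPM in 54 of 59 and 2 of 57 cells. In the 129 endothelial, mesenchymal and immune cells of the main plate, which should lack these transcripts, *Hal*, *Sds* and *Cyp2f2* were at 2.886, 3.449 and 5.66 CPM, with a *Hal* count in 36.4% of them at a median depth of 202276 counts, and in 12.5% after thinning. Isolated *Hal* counts were therefore found outside hepatocytes on that plate, and the level carries more than the share of cells with a count.

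**Figure D1:**
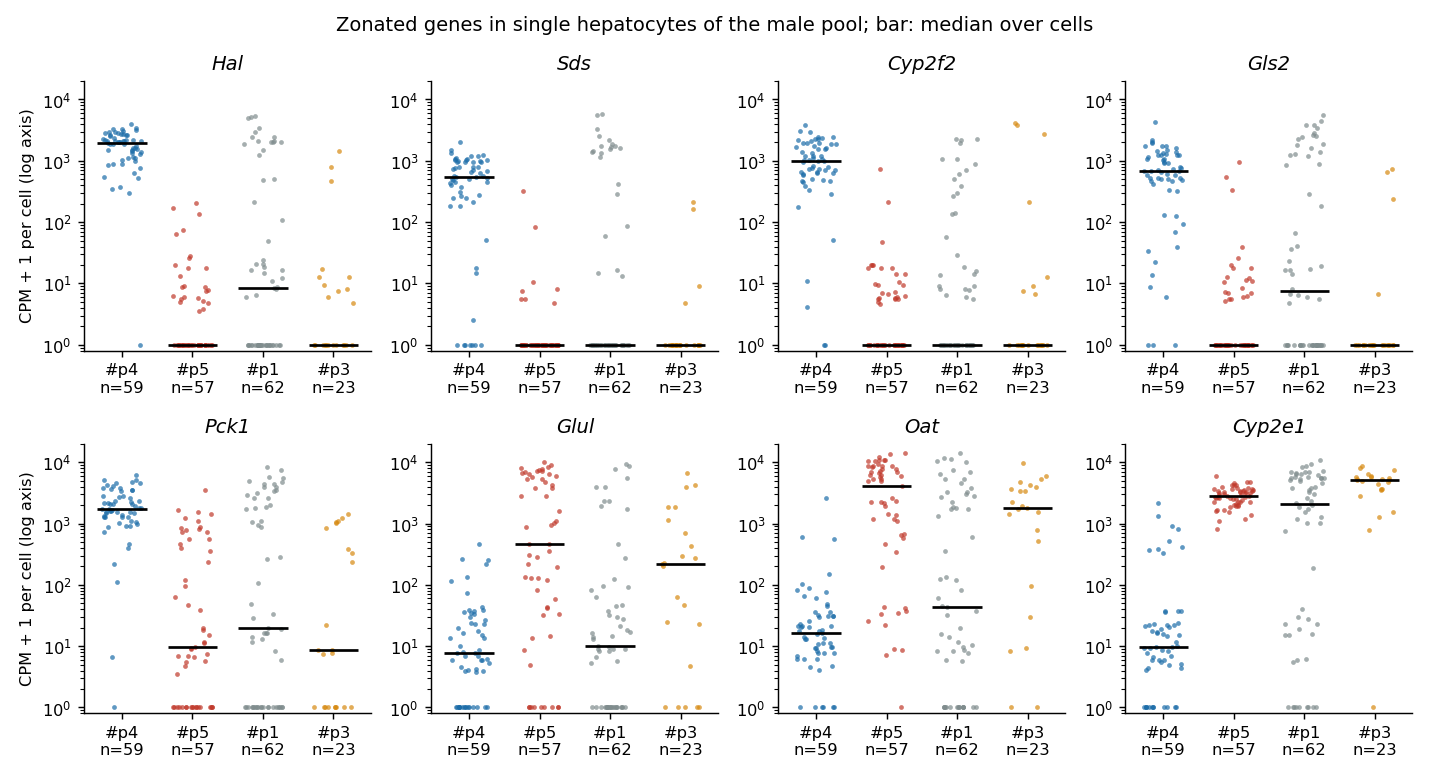
Level of 8 genes in every male hepatocyte of #p4, #p5, #p1 and #p3 (y axis: CPM plus 1, log axis; point: a cell; bar: median over cells). *Hal*, *Sds*, *Cyp2f2*, *Gls2* and *Pck1* sit high in #p4 and at or near 0 in most cells of #p5, *Cyp2e1* shows the opposite order, and #p1 holds cells of both kinds.

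Of 8488 genes at 10 CPM or more in #p4 or #p5, 312 (3.68%) were higher in #p4 and 95 (1.12%) were lower, 4.8% in both directions together, by a log2 ratio of at least 1 with a count in at least 50% of the cells of the higher cluster. This size rule is called past the fold below. Among 17 periportal markers considered, 14 were past the fold as higher and 0 as lower, with a median log2 ratio of 3.41 beside a median of 0.045 over all genes considered. The members short of it were *Alb* at 0.95, and *Ctsc* and *Aldh1b1*, which had counts in under 50% of the cells. *Aldh1b1*, a mitochondrial aldehyde dehydrogenase, was at 382.8 CPM in #p4 and 0.5222 CPM in #p5, where it had 5 counts, and 27 of 59 cells of #p4 carried it. *Cdh1*, the epithelial cadherin, was at 0.2276 CPM in #p4 with a count in 1.69% of the cells. These shares describe how the clusters differ and not a response, because the clustering used the same genes.

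Histidine breakdown was high along its whole course in #p4. *Uroc1*, urocanase, the step after *Hal*, was at 694.2 CPM in #p4 and 266.7 CPM in #p5, a log2 ratio of 1.38. *Amdhd1*, the imidazolonepropionase that follows it, was at 1071 and 151.6 CPM, a ratio of 2.82, and each of the 59 cells of #p4 had a count, from 27.35 to 2498 CPM. *Ftcd*, which passes the formimino group of histidine to folate, was at 1029 and 275.6 CPM, a ratio of 1.90. All 4 enzymes were past the fold against #p5, and against #p3 with ratios of 4.52 for *Hal*, 2.34 for *Uroc1*, 2.88 for *Amdhd1* and 2.47 for *Ftcd*. Against #p1 the ratios were 1.08, 0.70, 1.66 and 0.34, and *Uroc1* and *Ftcd* were not past the fold there. These ratios depend on the plate, as described below for #p1 as a whole, and on the main plate alone they were 2.06 for *Hal*, 2.70 for *Uroc1*, 1.51 for *Amdhd1* and 0.78 for *Ftcd*.

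*Hal* and *Amdhd1* are also neighbours. In RefSeq's annotation of GRCm38.p6, the build family named in the submitters' processing notes, *Hal* spans chr10:93488768-93516761 and *Amdhd1* spans chr10:93523338-93540111, with 6576 bases between them. The 250 bases upstream of the start used for each promoter are printed for both. Printed with them are those of *Pck1*, the gluconeogenesis gene with the largest ratio of #p4 to #p5 among those past the fold. Those of *Glul* and *Cyp2e1*, which mark #p5, are printed as well, because these genes take opposite sides of the comparison. The windows are chr10:93488518-93488767 on the plus strand for *Hal*, chr10:93540034-93540283 on the minus strand for *Amdhd1*, chr2:173152823-173153072 on the plus strand for *Pck1*, chr1:153899679-153899928 on the plus strand for *Glul* and chr7:140763569-140763818 on the plus strand for *Cyp2e1*. Capitals mark matches on either strand to the letters searched for, which were the TCF/LEF core CTTTGAT in the first place. The others were CAAAGTCCA for HNF4, TTGCNCAA for C/EBP, TGACGTCA for CRE and TTACGTCA for a variant of it, and the HNF1 motif. The last was the TATA box, read as TATAAA. Their matches do not overlap in these windows. The start used for the *Amdhd1* promoter differs from the end of the gene span given above. Its window bases from 93540034 to 93540111 lie inside that span.
Hal: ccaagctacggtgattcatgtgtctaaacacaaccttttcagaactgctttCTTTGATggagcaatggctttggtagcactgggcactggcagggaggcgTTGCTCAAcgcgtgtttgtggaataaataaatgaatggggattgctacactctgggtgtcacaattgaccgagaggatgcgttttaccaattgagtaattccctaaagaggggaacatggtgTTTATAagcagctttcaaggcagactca
Amdhd1: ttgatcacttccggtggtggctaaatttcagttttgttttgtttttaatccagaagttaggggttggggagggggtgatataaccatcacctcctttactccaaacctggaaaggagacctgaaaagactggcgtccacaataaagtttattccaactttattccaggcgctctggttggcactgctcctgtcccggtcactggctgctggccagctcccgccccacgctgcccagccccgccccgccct
Pck1: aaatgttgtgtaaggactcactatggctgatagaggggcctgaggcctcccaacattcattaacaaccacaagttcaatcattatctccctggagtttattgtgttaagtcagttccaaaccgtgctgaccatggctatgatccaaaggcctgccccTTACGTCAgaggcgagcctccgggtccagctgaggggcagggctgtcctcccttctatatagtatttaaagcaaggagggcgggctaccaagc
Glul: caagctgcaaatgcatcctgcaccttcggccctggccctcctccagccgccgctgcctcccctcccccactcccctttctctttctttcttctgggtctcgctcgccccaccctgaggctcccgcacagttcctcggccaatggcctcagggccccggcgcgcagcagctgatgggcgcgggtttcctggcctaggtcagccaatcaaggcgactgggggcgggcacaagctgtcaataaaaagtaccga
Cyp2e1: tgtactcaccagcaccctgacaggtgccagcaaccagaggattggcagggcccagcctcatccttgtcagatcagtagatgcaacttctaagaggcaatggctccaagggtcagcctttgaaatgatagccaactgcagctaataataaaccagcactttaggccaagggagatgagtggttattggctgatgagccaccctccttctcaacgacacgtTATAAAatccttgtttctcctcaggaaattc
The *Hal* window held a TCF/LEF match that begins 199 bases before the start, a C/EBP match at 150 bases and a TATA match at 28 bases. *Pck1* held the CRE variant at 93 bases, *Cyp2e1* a TATA match at 31 bases, and *Amdhd1* and *Glul* none of these letters. In windows of the same length over 27025 RefSeq genes, TCF/LEF letters were found in 3.72%, C/EBP in 2.99%, the CRE variant in 0.525% and TATA in 14.3%. Promoters were matched by symbol for 232 of the 312 genes higher in #p4, 70 of the 95 lower and 6506 of the 8488 considered. TATA letters stood in 13.4% of the higher, 11.4% of the lower and 8.28% of the genes considered, and C/EBP letters in 4.74% (11 genes), 0% (0 of 70) and 2.84%. TCF/LEF letters stood in 3.02%, 4.29% and 3%. The HNF4 letters were found upstream of 2 higher (0.862%) and 3 lower genes (4.29%), beside 0.523% of those considered. The HNF1 letters were found upstream of 2 (0.862%) and 0, beside 0.538%. The CRE was found upstream of 4 (1.72%) and 1 (1.43%), beside 3.09%. A match of letters is a description of the window, not a binding site.

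Of 16 urea cycle and ammonia genes, 6 were past the fold as higher in #p4 than in #p5 and 1, *Glul*, as lower, with a median log2 ratio of 0.51. *Cps1*, which fixes ammonia into carbamoyl phosphate, was at 1042 CPM in #p4 and 447.4 CPM in #p5, a log2 ratio of 1.22. *Ass1*, argininosuccinate synthase, was at 2786 and 868.4 CPM (1.68), and its level in single cells of #p4 ran only from 1698 to 5665 CPM. *Asl* was at 1541 and 734.9 CPM (1.07). *Otc*, the ornithine transcarbamylase, was at 1668 and 1083 CPM, which at 0.62 is short of the fold. *Gls2*, the liver glutaminase that feeds ammonia into the cycle, was at 826.7 CPM [811.2 to 842.3] in #p4 and 36.56 CPM [32.83 to 40.59] in #p5, a log2 ratio of 4.48. Among the higher ones was also *Slc38a3*, a glutamine transporter, at 368.2 and 179.5 CPM. With another scaling of the libraries, by the median of ratios, *Asl* and *Slc38a3* were no longer past the fold.

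Among 45 amino acid breakdown genes, 11 were higher and 3 lower past the fold, with a median of 0.23. Beside the histidine enzymes and *Sds*, the higher ones were *Etnppl*, the phosphoethanolamine phospho-lyase, at 777 and 34.05 CPM, *Agxt*, which clears glyoxylate, at 1420 and 494.3 CPM, *Got1*, the cytosolic aspartate aminotransferase, at 538.1 and 207.3 CPM, and *Tat*, tyrosine aminotransferase, at 2507 and 1119 CPM. *Amt*, of the glycine cleavage system, was at 159 and 45.75 CPM and *Kynu*, kynureninase, at 318.1 and 151.8 CPM. The lower ones were *Oat*, *Prodh*, the proline dehydrogenase, at 123 and 400.2 CPM, and *Agxt2* at 188.1 and 492.1 CPM. *Amt* and *Prodh* were not past the fold after thinning, nor *Kynu* with median-of-ratios scaling. Later genes of tyrosine breakdown had ratios short of the fold. *Hpd* had a log2 ratio of -0.30, *Hgd* 0.04 and *Fah* -0.13.

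For gluconeogenesis, 3 of 13 genes were higher past the fold and 0 lower, with a median of 0.37. *Pck1*, the PEP carboxykinase that commits carbon to glucose, was at 2121 CPM [2097 to 2146] in #p4 and 265.2 CPM [255 to 275.7] in #p5. Its median over cells was 1744 CPM in #p4 and 8.829 CPM in #p5, yet single cells of #p5 reached 3567 CPM, so that the clusters overlapped. *Fbp1*, fructose bisphosphatase, was at 2498 and 1179 CPM, and the third gene was *Tat*. *G6pc*, which releases free glucose, was at 189.5 and 92.86 CPM but in 44.1% of the #p4 cells, under the share the rule asks for. *Pcx*, pyruvate carboxylase, had a log2 ratio of -0.43. Of 14 glycolysis genes 1 was higher, *Khk*, which phosphorylates fructose, at 1055 and 478.5 CPM.

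**Figure D2:**
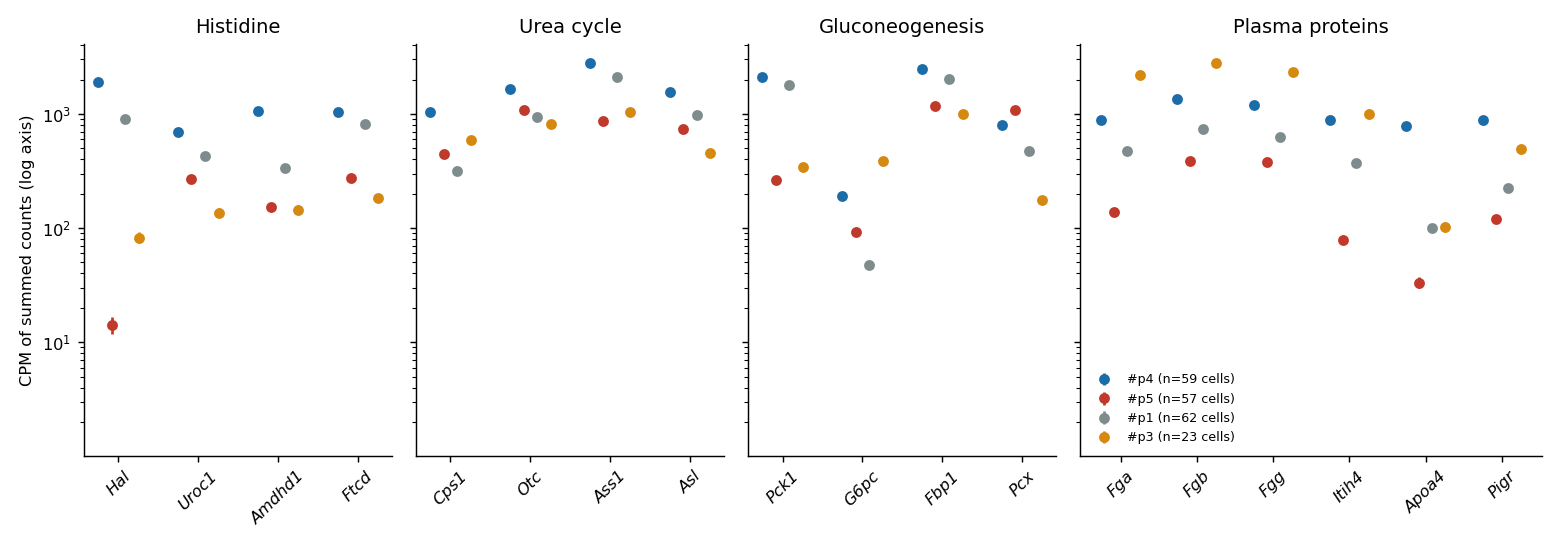
Levels of 18 genes of 4 pathways in #p4, #p5, #p1 and #p3 (y axis: CPM of the summed counts, log axis; bars: exact 95% Poisson intervals, mostly smaller than the points). The histidine and urea cycle genes were highest in #p4, whereas fibrinogen genes and *G6pc* were highest in #p3, where *G6pc* and *Fgb* were not past the fold over #p4 after thinning or on the main plate alone.

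Pericentral genes were low in #p4. Of 23 considered, 12 were past the fold as lower and 0 as higher, with a median log2 ratio of -4.28, which stays at -4.28 when the 5 members with 3 counts or fewer in #p4 are set to 3 counts. *Glul*, glutamine synthetase, was at 41.35 CPM [37.95 to 44.97] in #p4 and 2365 CPM [2334 to 2396] in #p5. Its highest cell of #p4 had 460.7 CPM, while 25 of the 57 cells of #p5 had at least 1000 CPM. *Oat*, ornithine aminotransferase, was at 120.9 and 4259 CPM and *Cyp2e1*, the ethanol-oxidizing P450, at 200.9 and 2770 CPM. *Aldh3a2*, a fatty aldehyde dehydrogenase, was at 57.29 and 2143 CPM. *Cyp2c54*, *Cyp2c37* and *Cyp2c29* had ratios of -7.09, -5.21 and -4.28, the first not past the fold after thinning, but the genes of this P450 family are close copies, and how reads were split among them is uncertain.

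The remaining *Oat* and *Cyp2e1* counts of #p4 sat in a small number of cells. The median cell had 15.62 CPM of *Oat* and 8.642 CPM of *Cyp2e1*, and the highest had 2588 and 2138 CPM. At least 100 CPM of *Cyp2e1* were found in 9 of 59 cells and at least 100 CPM of *Oat* in 5. The 3 cells of #p4 from other plates carried much of it, because on the main plate alone *Oat* was at 35.61 CPM and *Cyp2e1* at 73.74 CPM in #p4. The log2 ratios to #p5 were then -6.93 for *Oat* and -5.24 for *Cyp2e1*, in place of -5.13 and -3.78. *Hal*, *Sds*, *Cyp2f2* and *Glul* had ratios of 7.07, 6.33, 5.55 and -5.73 on the main plate alone, close to 7.02, 6.23, 5.52 and -5.82 over all plates.

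Summing marker genes places each cell on the axis. The sum over 16 periportal markers (without *Alb* and *Cdh1*) was divided by that sum plus the sum over 25 pericentral markers. The periportal share had a median of 89.07% in #p4 and ranged from 44.95% to 99.64%. It was above 50% in 57 of the 59 cells and above 90% in 23. In #p5 the median was 14.96% and the highest cell had 48.11%, so that 0 cells were above 50%. In #p3 the median was 15.59%, close to that of #p5. Of the 2 cells of #p4 below 50%, the lower had 0 CPM of *Hal* and *Sds*, 2588 CPM of *Oat* and 2138 CPM of *Cyp2e1*, but 2460 CPM of *Ass1* and 1296 CPM of *Pck1*. The authors' finer community clustering put 53 of the 59 cells in 1 cluster (community cluster 5), 5 in community cluster 1, this cell among them, and 1 in community cluster 4. *Gls2* was at 7.591, 12.76, 33.07, 68.36 and 1072 CPM in the 5 cells, and from 0 to 4262 CPM in the 53, so that the ranges overlapped.

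**Figure D3:**
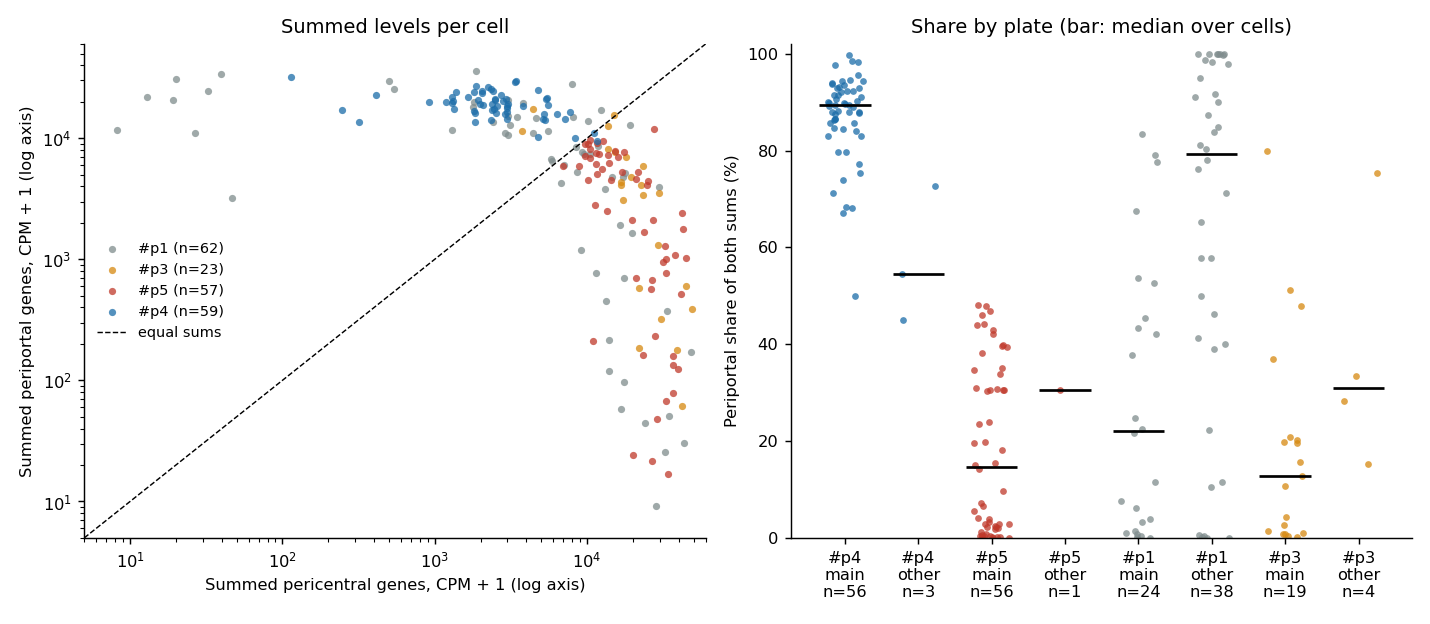
Left: summed periportal against summed pericentral marker levels per cell (both axes: CPM plus 1, log axes; dashed line: equal sums). Right: the periportal share of both sums (y axis, %) on the main plate and on other plates (bar: median over cells). Nearly all cells of #p4 lie above the line, and #p1 has a median share of 22.08% on the main plate and 79.25% on other plates.

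Of 11 Wnt pathway genes and targets considered, 2 were past the fold as lower in #p4 than in #p5, *Glul* and *Cyp2e1*, which are pericentral markers as well, and 0 as higher. *Axin2*, a direct target, had 1 count in #p4 and 344 in #p5, all of the latter in 3 cells. *Lgr5* had 0 counts in #p4, and 3 counts would be 0.2276 CPM, but it had 1 count in #p5 as well and 273 in #p3. *Tbx3*, a pericentral transcription factor, was at 0.4552 and 79.59 CPM, with a count in 21.1% of the #p5 cells. The median log2 ratio over the 11 was -3.66, also with genes at 3 counts or fewer set to 3. *Ctnnb1*, the gene of beta-catenin, was at 268.2 and 348.2 CPM and *Tcf7l2* at 24.13 and 12.53 CPM. *Sox9*, known from cholangiocytes and from hepatocytes next to the bile ducts, was at 27.54 CPM in #p4, with counts in 27.1% of its cells (16.4% to 40.3%), and at 1.776 CPM in #p5, 0.7538 CPM in #p1 and 0 CPM in #p3. That share is under the rule for past the fold. *Krt19*, the cholangiocyte keratin, had a count in 0 of the 59 cells, where 3 cells with a count would be a share of 5.08%, which limits cells with a count and not cells that express the gene, and *Cldn4* was also at 0. *Spp1*, osteopontin, was at 46.89 CPM in #p4 and past the fold over both #p5 (13.37 CPM) and #p3 (17.81 CPM), but over neither after thinning, and its highest cell had 875.6 CPM beside a median of 6.684 CPM. The 8 cholangiocyte markers summed to 74.96 CPM in #p4, 15.77 in #p5, 42.64 in #p1 and 20.16 in #p3, and of the 2 considered against #p5 *Spp1* was past the fold and *Sox9* was not.

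Of 32 genes of secreted plasma proteins considered, 19 were past the fold as higher in #p4 than in #p5 and 0 as lower, with a median log2 ratio of 1.22. *Itih4*, an inter-alpha-trypsin inhibitor chain, was at 892.7 CPM in #p4 and 78.34 CPM in #p5, and *Itih3* at 375.7 and 47.21 CPM. The fibrinogen genes *Fga*, *Fgb* and *Fgg* had ratios of 2.69, 1.81 and 1.66. *Kng1*, kininogen, was at 757.9 and 120.5 CPM, *Vtn*, vitronectin, at 1037 and 218.6 CPM and *Hpx*, the haem carrier hemopexin, at 1289 and 286.4 CPM. *Apoa4*, an apolipoprotein of lipid-rich particles, was at 778.4 and 33.32 CPM, and *Pigr*, the receptor that carries IgA into bile, at 876.5 and 119.9 CPM. *Serpina1a*, *Serpina1b*, *Apoa2* and *Rbp4* had ratios between -0.03 and 0.35. Among 13 acute phase genes 5 were higher and 0 lower, with a median of 1.43, including *Orm1* at 204.6 and 66.33 CPM and *Hp*, haptoglobin, at 1033 and 383.3 CPM. Of the 5, *Hamp* and *Mt1* were not past the fold after thinning, nor *Hamp* with median-of-ratios scaling.

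The order was different against #p3. There only 1 plasma protein gene, *Apoa4*, was higher in #p4 past the fold and 9 of 32 were lower, with a median of -0.75 beside 0.195 over all genes. Of all genes considered against #p3, 4.72% were higher and 4.74% lower. *Fga* was at 887.2 CPM in #p4 and 2213 CPM in #p3, and *Apob* at 189.6 and 763.6 CPM, although *Apob* and *Fgb* were not past the fold on the main plate alone. *Apoa5*, *Apoh* and *Apoe* had ratios of -1.35, -1.25 and -1.12. On the main plate alone 3 plasma protein genes were higher and 8 lower, beside 493 higher and 364 lower over all genes. *Mup* and male-biased genes showed the same side, with 0 of 16 higher and 12 lower than in #p3, although the *Mup* genes are close copies and their levels uncertain. Of 20 bile acid genes 0 were higher and 9 lower, among them *Cyp8b1* at 106.8 CPM in #p4 and 678.7 CPM in #p3 and *Slc10a1*, the bile acid importer, at 218.9 and 680 CPM.

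For lipid and energy metabolism the counts past the fold between #p4 and #p5 stand beside 4.8% of all genes considered. Of 25 fatty acid oxidation and ketogenesis genes 0 were higher and 1 was lower, *Acaa1b*, at 1457 and 3319 CPM, although 22 of the 25 ratios were below 0 and the median was -0.46. Of 25 respiratory chain and TCA genes, and of 19 cholesterol synthesis genes, 0 passed the fold in either direction, with medians of 0.15 and -0.15. Among 15 lipogenesis genes *Srebf1*, which encodes the SREBP1 activator of fatty acid synthesis, was higher at 204.9 and 15.88 CPM, with *Fasn* at 800 and 724.7 CPM. For drug metabolism beyond the P450 enzymes, 6 of 20 genes were higher and 2 lower, with a median of -0.16. Of the 20 log2 ratios 8 were above 0. Among the higher were the carboxylesterase *Ces1c* (1.70), *Ephx1* (1.62), *Aox3* (1.27), *Ces1d* and *Ugt2b5*, and the lower were *Gstm3* (-3.91) and *Nr1i3* (-1.38). *Ephx1* was not past the fold on the main plate alone or after thinning, nor *Nr1i3*, *Ces1d* and *Ugt2b5* after thinning. Of 23 hepatocyte transcription factors, 1, *Nr1i3*, was lower and 0 were higher.

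**Figure D4:**
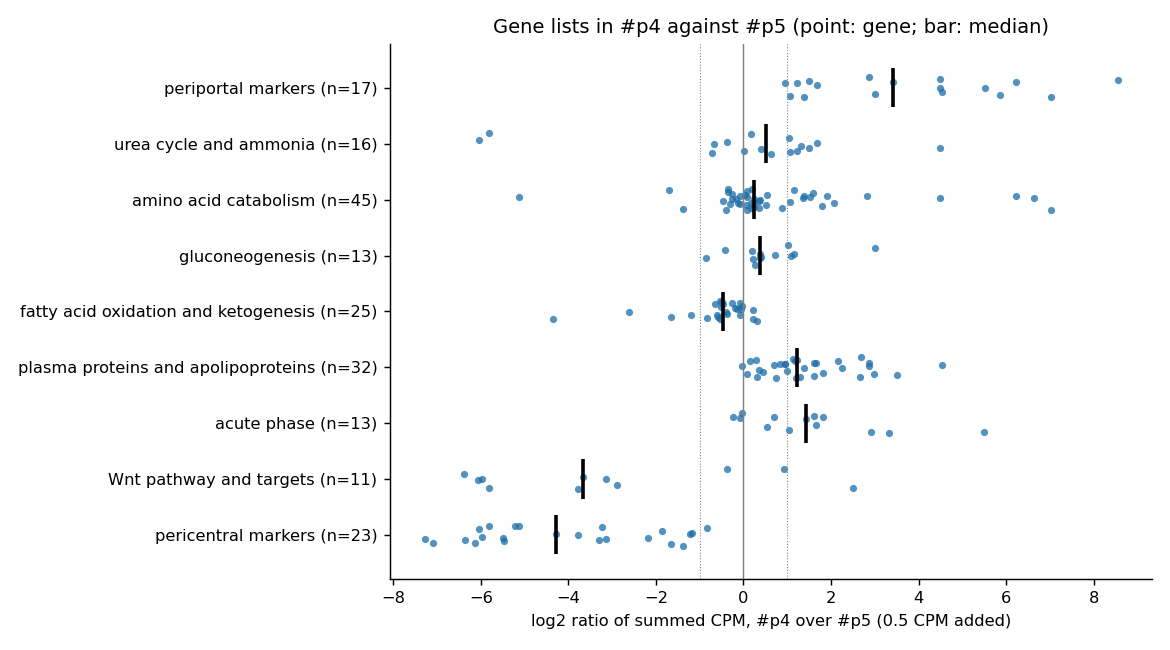
Log2 ratio of CPM, #p4 over #p5, for the genes of 9 lists (point: a gene; bar: median of the list; dotted lines: a ratio of 1 in size). Periportal markers lie between 0.95 and 8.55, pericentral markers lie below 0, and the median of fatty acid oxidation genes is -0.46.

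Among genes past the fold, and so with counts in at least 50% of the cells of the higher cluster, those with the largest ratios over #p5 included, with predicted genes left aside here and in the rankings that follow, *Cryl1*, lambda-crystallin, which acts in sugar acid metabolism, at 182.2 CPM against 5 counts (0.5222 CPM) in #p5, and *Hsd17b13*, a lipid droplet protein, at 432.8 and 6.894 CPM. Others among the 15 largest were *Qsox1* (4.61), *Bdh2* (4.19), *Mug2* (160.8 and 9.609 CPM), *Plbd2* (3.99), *Pdia4* (3.81) and *Slc17a2* (3.53). Of these, *Qsox1*, *Pdia4* and *Slc17a2* were not past the fold when the cells were thinned to 50000 counts. With detection set at 20 counts in a cell, *Cryl1*, *Bdh2* and *Mug2* were not past it either, nor the lower genes *Lhpp*, *Teddm2* and *Mir8114* named below. *Cryl1* was then not past it against #p1 or #p3 either. *Plbd2* and *Sds* overlap by 40 bases on chromosome 5 in the RefSeq annotation, and whether the counting used strand is not given in the sources used here, so part of the *Plbd2* counts is uncertain. On the lower side, *Fitm1*, which acts in lipid droplet formation, was at 4.249 and 264.4 CPM, and *Lhpp*, a phosphatase gene 34216 bases from *Oat* on chromosome 7, was at 8.346 and 296 CPM. *Teddm2* and *Mir8114* had ratios of -5.40 and -5.28. *Mir8114* overlaps *Glul* by 108 bases and *Teddm2* lies 48733 bases from it on chromosome 1, and counts of *Mir8114* cannot be told apart from those of *Glul* where they overlap. *Gstm2*, *Gstm3*, *Mup.ps16* and *Mup17*, all with close copies, had ratios from -3.98 to -3.46.

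The comparison with #p1 depends on the plate. Of 8478 genes considered, 404 (4.77%) were higher and 281 (3.31%) lower in #p4, 8.08% together, and 7 of 18 periportal markers were higher with a median of 0.68 beside 0.099 over all genes. *Sds* was at 691.5 CPM and *Gls2* at 973.8 CPM in #p1, both above #p4 in the summed counts, but the medians over cells of #p1 were 0 and 6.521 CPM against 545.4 and 686.6 CPM in #p4. In #p1 31 of the 62 cells were above a periportal share of 50% and 31 below. Its 24 cells on the main plate had a median share of 22.08%, with 6 above 50%, and its 38 cells on other plates a median of 79.25%, with 25 above. *Pck1* was at 167.3 CPM in the former and 2274 CPM in the latter, and *Glul* at 1397 and 282.4 CPM. Depth differed too, with medians of 74225 counts and 2250.5 genes in the former and 190250 and 2019.5 in the latter. The #p4 cells of the main plate had medians of 199963 counts and 3872.5 genes. Thinning was not combined with the main plate, so the part of depth in the main-plate differences was not tested. Within the main plate, 13 periportal markers and 18 amino acid breakdown genes (9 over all plates) were higher in #p4 than in #p1, and the log2 ratios were 3.66 for *Sds*, 1.47 for *Gls2* and 3.70 for *Pck1*, in place of -0.28, -0.24 and 0.25. Over all genes, 646 were higher and 300 lower in #p4 on the main plate. Of those past the fold 68.3% were higher there, beside 59% over all plates. Among genes past the fold, the largest ratios over #p1 on all plates belonged to *Nudt12* (7.38), *Chka* (6.80), *Sec24a* (6.35), *Acsl5* (5.47) and *Dnajc3* (5.22), and the 8 lowest included those of *Ucp2* (-4.39), *Msn* (-3.32), *Tagln2* (-3.28) and *Egfl7* (-3.04). *Nudt12*, *Acsl5*, *Ucp2*, *Msn*, *Tagln2* and *Egfl7* were not past the fold against #p1 after thinning. *Msn*, *Tagln2* and *Egfl7* were at 671.7, 704.2 and 661.7 CPM in the non-parenchymal cells of the main plate, and none of them was past the fold against #p1 on that plate alone, where *Egfl7* had a ratio of 0.74.

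Against #p3, 409 of 8662 genes (4.72%) were higher and 411 (4.74%) lower, 9.47% together. Periportal markers were higher for 12 of 17, with a median of 2.34, and pericentral markers lower for 17 of 23, with a median of -4.57. *Sds* was at 15.45 CPM and *Etnppl* at 25.66 CPM in #p3. *Cyp2f2* was at 370.5 CPM there, with at least 1000 CPM in 3 of 23 cells and a median of 0. Among genes past the fold, the largest ratios over #p3 included *Cryl1* (7.15), *Tcp11l2* (6.36), *Nr1d2* (5.94), a circadian repressor, and *Exoc3* (5.13), of which the last 3 were not past the fold after thinning. The lowest among genes past the fold included *Cyp2c54* (-8.87), *Rdh9* (-8.81), a retinol dehydrogenase family member, *Cyp2a5* (-8.29), *Cyp2c38* (-7.83), *Plbd1* (-7.37) and *Cyp7a1* (-7.26), the rate-limiting enzyme of bile acid synthesis. *Plbd1* was not past the fold after thinning. *Cyp7a1* had 3 counts in #p4 and 423 in #p3, and without the 0.5 CPM added its log2 ratio has a counting interval from -11.21 to -7.37.

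In all 3 comparisons together, which share the cells of #p4, 27 of 9799 genes (0.276%) were higher in #p4 than in each other hepatocyte cluster and 19 (0.194%) were lower. Among these 27, *Apoa4* led by its smallest ratio with 2.92, at 778.4 CPM in #p4 against 33.32, 100.4 and 102.4 CPM in #p5, #p1 and #p3. *Smcr8* (2.40), *Hsd17b13* (2.04), *Kyat1* (1.89), a kynurenine aminotransferase, *Amt* (1.79), *Cryl1* (1.74), *Amdhd1* (1.66) and *Cyp2f2* (1.65) followed. *Akr1e1*, *Exoc3*, *Rbm4b*, *Sfxn1*, a mitochondrial serine carrier, *Babam2*, *Etnppl* and *Eapp* had smallest ratios from 1.52 down to 1.30. After thinning, *Smcr8*, *Amt*, *Akr1e1*, *Exoc3*, *Rbm4b*, *Babam2* and *Eapp* were no longer past the fold against #p5. *Hal* is in this set at 1.08. *Sfxn1* was at 254 CPM in #p4 and 43.24, 95.95 and 61.27 CPM in the others, and *Kyat1* at 485.6 CPM and 120, 123.5 and 130.7 CPM. The genes lower than in each other cluster were led by *Glul* (-3.69), *Oat* (-3.62), *Cyp2e1* (-3.54), *Aldh3a2* (-3.16), *Mup17* (-2.92) and *Ucp2* (-2.64), a mitochondrial uncoupling protein. *Gstm2*, *Lgals1*, *Ang*, *Mup9*, *Cyp3a11*, a steroid- and drug-oxidizing P450, *Blvrb*, *Rnase4*, *Elovl3* and *Nrn1* followed. After thinning, *Aldh3a2*, *Mup17*, *Ucp2*, *Gstm2*, *Lgals1*, *Ang*, *Mup9* and *Nrn1* were no longer past the fold against #p1, and *Ucp2* and *Mup9* were not past it against #p5 either. *Ang* and *Rnase4* share 10933 bases of annotation, so that their counts are not independent.

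Markers of other cell types were counted in the same sums. *Dcn*, a fibroblast and stellate cell transcript, had counts in all 59 cells of #p4 at 212.8 CPM and was at 205 CPM in #p5, compared with 3856 CPM in the other cells of the main plate. The 10 mesenchymal markers summed to 400.8 CPM in #p4 (14.49 to 2735 over cells), 378.6 in #p5, 311.2 in #p1 and 616.9 in #p3. The 9 endothelial markers summed to 126.9 CPM in #p4, 22.56 in #p5 and 400.4 in #p1, and the 13 immune markers to 75.72, 51.49 and 558.6 CPM. The medians over cells of #p4 were 13.74 CPM for the endothelial and 3.736 CPM for the immune sum. *Cd3e* and *Cd79a* were at 0 in #p4. The erythroid markers summed to 622.9 CPM in #p4, 570.6 in #p5, 546.1 in #p1 and 207.1 in #p3, nearly all of it *Alas2*, the erythroid haem synthesis enzyme, at 617.7 CPM in #p4 and 206.6 CPM in #p3, past the fold as higher, while it was at 8.359 CPM in the non-parenchymal cells of the main plate. The part of such transcripts in the differences from #p1 was not tested. Of 14 genes induced by dissociation, 2 were higher in #p4 than in #p5 and 0 lower, with a median of 0.52. These were *Junb* at 64.95 and 22.04 CPM and *Ier2* at 81.72 and 23.29 CPM, the latter not past the fold after thinning. Against #p3, 2 of 18 were higher and 4 lower, with a median of -1.32, led by *Fos* at 61 and 353.2 CPM, but on the main plate alone 2 were higher and 0 lower. Against #p1, 1 of 16 was lower over all plates and 5 on the main plate alone, beside 281 and 300 over all genes.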

How the data were processed

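Single liver cells were sequenced with Smart-seq2 in 50-base single reads. The authors deposited raw read counts per gene and cell without normalization, together with cell class, sex, plate and pagoda2 clusters. The submitters' processing notes name Bowtie2, featureCounts and Subread with GRCm38/mm10, without the strand setting. Against doublets, the authors used sort gates, an upper limit on genes per cell and removal of cells with transcripts of mixed cell types. No computational caller was added here. Counts without the 92 ERCC spike-ins (46517 genes) were summed over the male cells of a cluster, since each cluster is 1 sample, and expressed as CPM with 0.5 added for ratios. A gene was considered at 10 CPM in either cluster. Thinning used 50000 counts per cell. A further 1119 count columns outside the labelled cells were not used. Named genes are members of 23 lists of 407 genes, the 15 highest and 15 lowest ratios over #p5, 8 and 8 over #p1 and #p3, 15 and 15 against all 3, and the 10 most spread within #p4. Genes named only by a Gm or Rik identifier are counted but not named. The cluster, lists, motifs and rules were chosen with earlier results of these data known. The ratio procedure was tested on simulated data. The simulated cells of a group shared 1 profile and differed by counting error only, so the spread between real cells was not covered. Alternatives were thinning, the mean of CPM over cells, 5 CPM added, no filter on low values, detection at 20 counts, median-of-ratios scaling and the main plate alone. Python 3.11.15, numpy 2.4.6, pandas 2.3.3, scipy 1.17.1 and matplotlib 3.10.9 were used. Promoters and gene positions are those of RefSeq for GRCm38.p6. Some members of the lists are counted but not reported here by name.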

Additional observations from a re-analysis of the deposited data

How the results depend on the processing

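The number of genes past the fold moved most with depth and detection. With every cell thinned to 50000 counts, 268 genes passed against #p5 (192 higher) and 450 against #p1 (252 higher). With detection at 20 counts, 147 passed against #p5 (108 higher, 39 lower), 220 against #p1 (147 higher, 73 lower) and 350 against #p3 (168 higher, 182 lower). On the main plate alone 646 were higher than in #p1 and 300 lower. Of 358 ratios of named genes past the fold, 91 were not past it after thinning, 143 at 20 counts, 22 with the mean over cells, 14 with median-of-ratios scaling, 6 with 5 CPM added, 0 without the filter and 48 on the main plate. Signs turned only on the main plate: against #p1 for *Elovl5* (-0.06), *F2* (-0.04), *Itih4* (-0.11), *Col3a1* (-0.12) and *Egfl7* (0.74), and against #p3 for *Junb* (0.05), *Dusp1* (0.26) and *Acta2* (0.72). The cause was not tested. Keeping only the 53 cells of community cluster 5, an alternative chosen after seeing the data, took 5 ratios below the fold. No paired analysis was possible because all cells of #p4 belong to 1 pool and the labels name no mouse. All differences rest on this pool, and a difference between mice cannot be told apart from one between clusters.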

Other observations

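Within #p4, single genes spread over the cells to unequal degrees. Among 2082 genes with at least 50 CPM, the median coefficient of variation over the 59 cells was 1.21, and the genes farthest above the trend with mean level were *Scd1*, *Rn18s.rs5*, *Oat*, *Metap2*, *Aplp2*, *Yam1*, *Dcakd*, *Alb*, *Yam1.1* and *Cyp2e1*. *Scd1*, the stearoyl-CoA desaturase, was found in all 59 cells, from 22.77 through a median of 4929 to 22520 CPM. *Alb*, the gene of serum albumin, also had counts in every cell and ran from 2093 to 18840 CPM. The coefficients of *Scd1* and *Alb* were 0.84 and 0.40, under the median of 1.21. Both genes therefore stood out from the trend at their high mean level only. *Metap2* and *Dcakd* were of another kind, with medians of 4.905 and 5.438 CPM and highest cells at 3067 and 3015 CPM. *Rn18s.rs5*, *Yam1* and *Yam1.1* had coefficients of 0.42, 0.41 and 0.41, and the first is annotated as ribosomal RNA sequence.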
